A study of Mus musculus with 12 samples.

Results

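The BCL2 family apoptosis regulators described here are 10 genes, chosen by name from the 23226 features that carry 1 gene name in the authors' deposited table: Bcl2, Bcl2l1, Bcl2l2, Mcl1, Bax, Bak1, Bcl2l11, Bid, Bad and Pmaip1. The choice was by name and used no measured value as a rule, but it was made with earlier results of these data known. All 10 genes were found and tested in every comparison. The series holds RNA-seq of 12 samples from 3 mouse lines of small cell lung cancer, which are tumor-derived, are labelled Trp53-/-;Rb1-/- and grow as floating spheres in RPMI with serum. The lines 16T and KP1 are labelled Nfib high and received either a control shRNA, titled shLuc, or 1 that targets Nfib, titled sh2 in both lines. KP22 is labelled Nfib low and received Nfib cDNA in an expression vector, or the vector alone. The 6 groups held 2 samples each, not said to be separate cultures, so that p-values measure only the spread between these samples, which may be technical. All groups, controls included, are labelled as lacking Trp53 and Rb1, 1 shRNA was used per knockdown line, and no source used here names the vectors' promoters.

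BCL2 family proteins decide whether the outer membrane of mitochondria is opened during apoptosis. Anti-apoptotic members (BCL2, BCL-XL, BCL-W and MCL1) hold the pore-forming effectors BAX and BAK in check, while BH3-only members such as BIM, BID, BAD and NOXA either bind and block the anti-apoptotic members or activate the effectors. Opening of the membrane releases cytochrome c, which assembles the apoptosome and activates caspases. Small cell lung cancer cells commonly depend on anti-apoptotic members for survival, and Bax, Pmaip1 and Bbc3 are known targets of p53.

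The deposited values were log2 fold changes with SEs per comparison and 1 mean normalized count per gene over all libraries, with no values per sample, so the level in each sample and the number of samples showing a direction are not given here, and the total count per sample is unknown. The words rose and fell are kept for an authors' adjusted p below 0.05, and values after ± are SEs. Nfib, the targeted gene, had a log2 fold change of -1.08 ± 0.035 in 16T and -1.32 ± 0.035 in KP1, and of 1.80 ± 0.036 in KP22, in the authors' deposited table. The headings of the table give no direction. It was read from Nfib, which therefore is no separate check of the labels. Of the markers for the labelled cell type, all 8 neuroendocrine genes had mean normalized counts between 5290 and 45597 in the authors' deposited table, whereas 6 leukocyte markers lay between 0 and 13.4. Fibroblast markers reached 2220 (Pdgfra), endothelial markers 495 (Kdr) and airway and alveolar markers 171 (Sftpc) in the authors' deposited table. The same lists held Dcn at 284, Tek at 183 and Foxj1 at 157, but also Col1a2, Cdh5 and Scgb1a1 at 2.02, 2.11 and 0. Means below 10 were found for 2 of 5 fibroblast, 1 of 4 endothelial and 2 of 4 airway and alveolar markers. Of the tested markers of other cell types, Dcn (0.61 ± 0.21) and Pdgfra (0.24 ± 0.077) rose and Kdr (-1.48 ± 0.18) and Sftpc (-2.07 ± 0.25) fell in 16T, Pdgfra (-0.47 ± 0.069) and Kdr (-1.62 ± 0.21) fell in KP1, and Kdr (-1.76 ± 0.16) also with cDNA, as the authors' deposited table gives them. The 8 neuroendocrine genes counted 3 rises and 3 falls for 16T, 4 and 4 for KP1, 2 and 5 for KP22, where 45.3%, 37.2% and 38.4% of all tested genes changed. Their falls in KP22 included Chgb (-4.27 ± 0.059), Calca (-1.71 ± 0.056) and Chga (-1.04 ± 0.037) in the authors' deposited table. The markers' part in the results on the members was not tested. Reads still counted for Trp53 (mean 411 in the authors' deposited table), and no source used here names the deleted exons, so this checks nothing. Fewer cells of a type and less RNA per cell cannot be told apart in bulk samples.

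Upstream sequences are shown for the 3 members that changed in the same direction in both knockdown lines, Bak1, Bcl2l1 and Bcl2l11. Each is the 250 bases before the most upstream start in RefSeq (GRCm38.p6, the assembly of mm10), 5′ to 3′ on the gene's strand. Capitals mark the half-site of the NFI family, TTGGC, searched on both strands (GCCAA on the other), and in Bcl2l11 also a forkhead box O (FOXO) motif, TGTTTAC, found on the other strand as GTAAACA.
Bak1, chr17:27028628-27028877, minus strand: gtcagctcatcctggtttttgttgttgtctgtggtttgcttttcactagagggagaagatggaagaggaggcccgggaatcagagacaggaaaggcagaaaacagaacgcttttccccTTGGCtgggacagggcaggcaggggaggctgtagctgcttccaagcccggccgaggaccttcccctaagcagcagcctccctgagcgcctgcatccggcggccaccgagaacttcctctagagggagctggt
Bcl2l1, chr2:152831729-152831978, minus strand: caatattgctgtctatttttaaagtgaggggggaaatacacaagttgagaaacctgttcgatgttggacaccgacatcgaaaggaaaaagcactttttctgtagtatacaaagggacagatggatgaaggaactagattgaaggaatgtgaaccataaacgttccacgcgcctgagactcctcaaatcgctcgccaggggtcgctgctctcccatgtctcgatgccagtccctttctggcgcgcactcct
Bcl2l11, chr2:128125788-128126037, plus strand: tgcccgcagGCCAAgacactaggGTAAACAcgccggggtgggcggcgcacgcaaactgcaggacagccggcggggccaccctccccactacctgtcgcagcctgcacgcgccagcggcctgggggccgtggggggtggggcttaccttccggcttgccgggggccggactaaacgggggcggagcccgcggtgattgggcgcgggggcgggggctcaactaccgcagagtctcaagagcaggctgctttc

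The half-site of Bak1 begins 132 bases before the start and that in the Bcl2l11 window shown 241 bases before it. Another Bcl2l11 window, before a start further downstream, held a half-site 75 bases before that start. No half-site is in the Bcl2l1 window. In RefSeq, 9 members had 13 such windows, of which 4, from 3 members, held a half-site. Of all 32851 windows of this length, 41.5% held one. Mcl1, whose transcript changed in none of the comparisons, had 4 half-sites. The full palindrome, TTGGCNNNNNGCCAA, was in 0 of the 13 windows and in 0.0365% of all. The FOXO motif, which does not overlap the half-site shown, begins 227 bases before the most upstream Bcl2l11 start. It was in 1 of the 13 windows and 3.17% of all. It was searched after the values of Foxo1 had been seen. A match is a description of these letters and no measure of binding.

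The members differed 182-fold in level, taken as the authors' mean normalized count over all libraries per kb of the gene's own exon intervals. Bax was the highest at 5433 per kb (mean 4721 over 869 bp), above 95.4% of 15008 genes with a mean of at least 10. Mcl1 (1395 per kb), Bcl2l1 (1232), Bad (891), Bid (782), Bcl2l2 (714) and Bak1 (676) followed, all above the median gene at 490. Bcl2 (175 per kb), Bcl2l11 (117) and Pmaip1 (29.9) lay below it, so the anti-apoptotic members with the most RNA per kb were Mcl1 and Bcl2l1. These levels are means over 3 lines with no spread over samples, so neighbors in this order were not tested against each other. Pmaip1, at a mean of 79.3, also had the widest SEs of the 10 genes, up to 0.51.

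**Figure D1:**
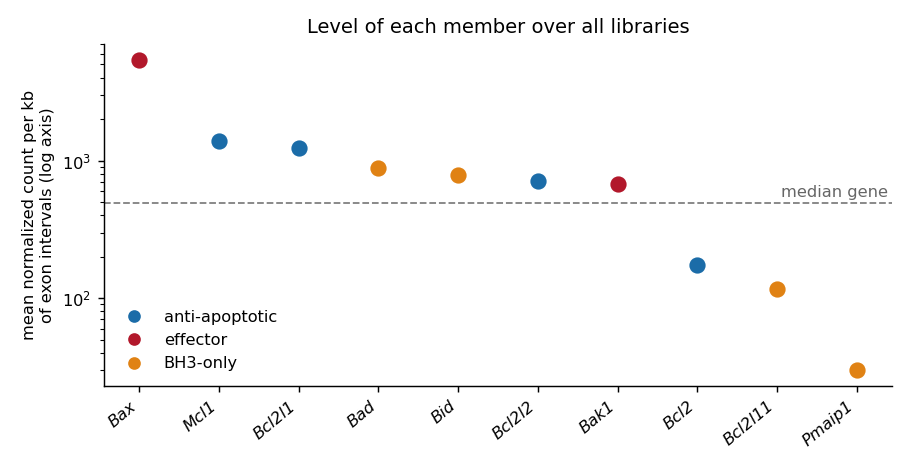
Each point is 1 member's mean normalized count over all libraries per kb of exon intervals (log axis), colored by role, and the dashed line is the median of genes with a mean of at least 10. Bax stands highest at 5433 per kb, and Bcl2, Bcl2l11 and Pmaip1 lie below the median of 490.

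The intervals counted under each name set which part of a transcript a value describes. Bcl2 (mm10 chromosome 1, minus strand) was counted on 1 interval of 5221 bp, 106538178 to 106543398, the last exon, of which GENCODE M21 gives 2.53% as coding. Its first exons are held under a joined name of 2517 bp (106711774 to 106714290). Bcl2l11 (chromosome 2, plus strand, 128126038 to 128162547) had 5 intervals with 3.93% coding, and a further 395 bp, 96.7% coding, under a joined name. Bcl2l1 (chromosome 2, minus strand, 152758732 to 152831728) and Bak1 (chromosome 17, minus strand, 27019812 to 27028626) had 6 intervals each, as had Bid (chromosome 6, 120893119 to 120916820) and Bax (chromosome 7, 45461695 to 45466898). Mcl1 lies on chromosome 3 (95658721 to 95663178), Bcl2l2 on chromosome 14 (54883425 to 54888234), Bad on chromosome 19 (6942562 to 6951905) and Pmaip1 on chromosome 18 (66458604 to 66465558). No source used here says whether reads were counted by strand. Exons of other genes overlap 22.1% of the counted bases of Bax (Gm45808, same strand), 17.2% of Bcl2l2 (Gm20521, same strand), 10.7% of Bcl2 (D630008O14Rik, opposite strand) and 3.95% of Bak1 (Ggnbp1, opposite strand), and reads there cannot be assigned to 1 gene.

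Knockdown of Nfib was accompanied by less RNA of Bcl2l1 and Bak1 and more of Bcl2l11 in both lines, while Mcl1 and Bcl2l2 were not called in either. With the Nfib shRNA, 16T had 5 members lower (Bcl2, Bcl2l1, Bax, Bak1 and Bid) and 1 higher (Bcl2l11), that is 6 of 10, where 45.3% of all tested genes changed, 20.0% higher and 25.3% lower. KP1 had 2 members lower (Bcl2l1 and Bak1) and 1 higher (Bcl2l11), that is 3 of 10, against 37.2% of all genes, 17.6% higher and 19.6% lower. KP22 with Nfib cDNA had 4 higher (Bcl2l1, Bax, Bak1 and Bid) and 1 lower (Bad), that is 5 of 10, against 38.4% of all genes, 19.5% higher and 18.8% lower. None of these counts is read as particular to the family, since the shares of all genes called are of like size. For 16T, KP1 and KP22 the median log2 fold changes of the 10 members were -0.23, -0.10 and 0.18, beside -0.05, -0.02 and 0.04 over all tested genes. The median absolute log2 fold changes of the members were 0.33, 0.15 and 0.32, beside 0.24, 0.19 and 0.25 over all tested genes. No member reached an absolute log2 fold change of 1. In 16T only 5.61% of tested genes had a larger absolute change than Nfib (-1.08). The authors' own test against 0.5 called 0 of 10 members in each comparison, beside 5.25%, 4.58% and 7.66% of all genes. With shares this small, these counts of 0 are not read as particular to the family either. The lowest adjusted p of a member in that deposited test was 0.133, for Bcl2l11 in KP1.

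**Figure D2:**
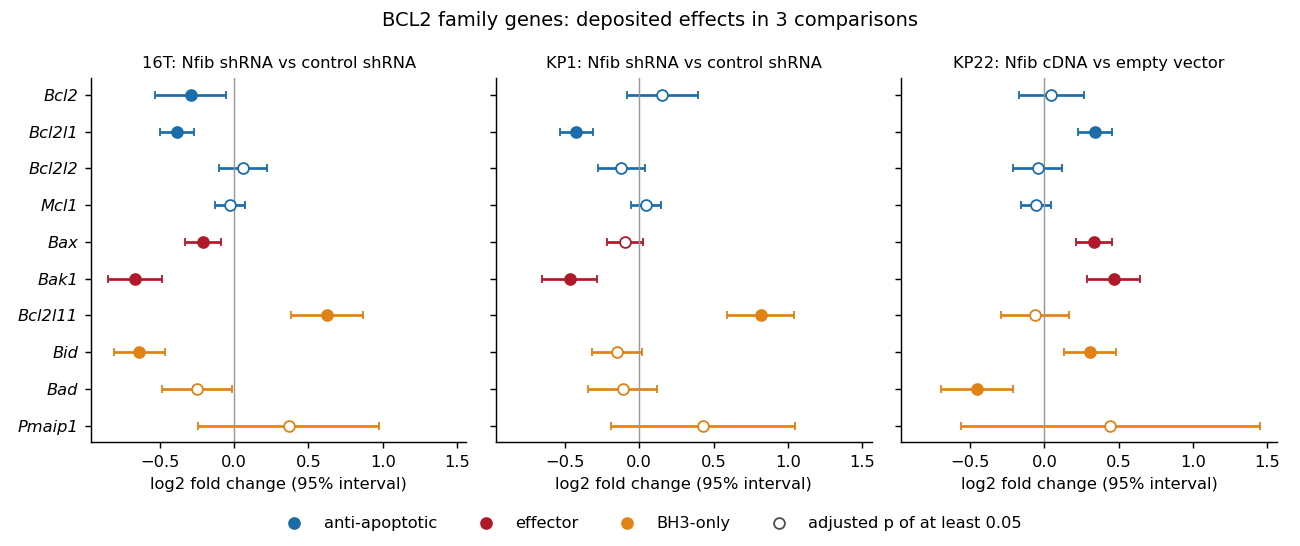
Log2 fold changes of the 10 members (points) with 95% intervals (1.96 SEs on either side) in 16T, KP1 and KP22, filled where the adjusted p was below 0.05. Bak1 and Bcl2l1 lie below 0 in both knockdown lines and above 0 with cDNA, Bcl2l11 lies above 0 in the knockdown lines and near 0 in KP22 (-0.06), and Mcl1 is near 0 in all 3.

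Among the anti-apoptotic members, Bcl2l1, which encodes BCL-XL, moved with Nfib in every line. Its log2 fold change in the authors' deposited table was -0.38 ± 0.058 in 16T (adjusted p = 3.9e-10), -0.42 ± 0.057 in KP1 (adjusted p = 1.85e-12) and 0.34 ± 0.058 in KP22 (adjusted p = 2.73e-08). Bcl2l1 RNA was thus at 76.7% and 74.5% of the control level with the shRNA and at 127% with cDNA. The short stretch of 332 bp held under a joined name for Bcl2l1, none of it coding, had -0.07 ± 0.24, -0.42 ± 0.24 and 0.21 ± 0.24 in the authors' deposited table, with the same signs and no call. Bcl2, the founding member of the family, fell in 16T in the authors' deposited table (-0.29 ± 0.12, adjusted p = 0.0432) and had 0.15 ± 0.12 in KP1 (adjusted p = 0.368) and 0.05 ± 0.11 in KP22 (adjusted p = 0.806). The call for Bcl2 in 16T was lost under 3 other settings (adjusted p of 0.0526 with no filter on the mean, 0.102 recentred on the median gene and 0.128 when a t distribution with 6 degrees of freedom replaced the normal one). Its first exons, counted apart, had a like value in 16T in the authors' deposited table (-0.29 ± 0.20, adjusted p = 0.262).

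Mcl1, whose protein is short-lived and inhibits BAK, had the narrowest intervals of the 10 members. The authors' deposited table gave -0.03 ± 0.051 in 16T, 0.05 ± 0.051 in KP1 and -0.05 ± 0.052 in KP22. The 95% intervals ran from -0.13 to 0.07, from -0.05 to 0.15 and from -0.16 to 0.05, so that a change of Mcl1 RNA beyond 0.16 on the log2 scale lies outside all of them. Bcl2l2, which encodes BCL-W, had 0.06 ± 0.082, -0.12 ± 0.082 and -0.05 ± 0.084 in the authors' deposited table, with 95% intervals of -0.10 to 0.22, -0.28 to 0.04 and -0.21 to 0.12. Of 4 anti-apoptotic members, 0 rose and 2 fell for 16T, 0 and 1 for KP1, 1 and 0 for KP22. Beside this, 20.0% of all tested genes rose and 25.3% fell in 16T. The shares were 17.6% and 19.6% in KP1, and 19.5% and 18.8% in KP22.

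The effectors Bak1 and Bax, whose proteins form pores in the mitochondrial membrane, moved in the direction of Nfib, Bak1 in all 3 lines and Bax in 16T and KP22. Bak1 fell to 63.0% of control in 16T and 72.3% in KP1 and rose to 138% in KP22. In the authors' deposited table these are log2 fold changes of -0.67 ± 0.093 (adjusted p = 8.17e-12), -0.47 ± 0.095 (adjusted p = 7.35e-06) and 0.46 ± 0.091 (adjusted p = 2.32e-06). Bax fell in 16T (-0.21 ± 0.062, adjusted p = 0.00223) and rose in KP22 (0.34 ± 0.062, adjusted p = 4.84e-07) in the authors' deposited table, while its value in KP1 was -0.10 ± 0.062 (adjusted p = 0.25). Bak1 and Bcl2l1 were the 2 of 10 members called in all 3 comparisons in the same direction relative to Nfib, where 10.1% of 14504 genes were. With Bcl2l11, 3 members changed in the same direction in both knockdown lines, beside 18.6% of these genes, and 3 (Bcl2l2, Mcl1 and Pmaip1) were called in none of the comparisons, beside 28.5%. Since both moved the same way, the log2 change in the ratio of Bak1 to Bcl2l1 amounted to -0.28 ± 0.11 for 16T, -0.04 ± 0.11 for KP1 and 0.12 ± 0.11 for KP22 (errors added as if independent, no test). For the ratio of Bax to Bcl2l1 the changes were 0.17 ± 0.085, 0.33 ± 0.084 and -0.01 ± 0.085. For the ratio of Bak1 to Mcl1 it was -0.64 ± 0.11, -0.51 ± 0.11 and 0.52 ± 0.10.

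Of the BH3-only members, Bcl2l11, which encodes BIM, an activator that binds all anti-apoptotic members, had the largest rises that were called. Its level with the Nfib shRNA was 1.54-fold that of the control in 16T and 1.76-fold in KP1, against 0.959-fold in KP22 with cDNA. The authors' deposited table gave 0.63 ± 0.12 (adjusted p = 2.21e-06), 0.82 ± 0.12 (adjusted p = 2.69e-11) and -0.06 ± 0.12 (adjusted p = 0.755). In KP1 8.81% of tested genes had a larger absolute change. The mostly coding stretch of Bcl2l11 under a joined name rose in 16T in the authors' deposited table (0.84 ± 0.34, adjusted p = 0.0379) and had 0.44 ± 0.32 in KP1 (adjusted p = 0.323) and 0.01 ± 0.33 in KP22. Because Bcl2l1 fell where Bcl2l11 rose, the ratio of their RNAs was 2.01-fold that of control in 16T and 2.36-fold in KP1, and 0.757-fold in KP22. On the log2 scale these changes of the ratio were 1.01 ± 0.14, 1.24 ± 0.13 and -0.40 ± 0.13, with errors added as if independent and no test. In KP22 Bcl2l11 was not called, while Bcl2l1 rose (0.34 ± 0.058). For the ratio of Bcl2l11 to Mcl1 the changes were 0.65 ± 0.13, 0.77 ± 0.13 and -0.006 ± 0.13, likewise with no test.

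Bid, whose protein is cleaved by caspase 8 and links death receptors to mitochondria, fell in 16T to 64.4% of control and rose in KP22 to 124%. For Bid the authors' deposited table gave log2 fold changes of -0.64 ± 0.087 (adjusted p = 3.08e-12), -0.15 ± 0.087 in KP1 (adjusted p = 0.194) and 0.30 ± 0.089 in KP22 (adjusted p = 0.00268). Bad, whose protein is held inactive by phosphorylation, fell with cDNA in KP22 (-0.45 ± 0.12, adjusted p = 0.00108) in the authors' deposited table. Its values with the shRNA were -0.25 ± 0.12 in 16T (adjusted p = 0.0834) and -0.11 ± 0.12 in KP1 (adjusted p = 0.536), on the same side of 0 as in KP22. Pmaip1, which encodes NOXA, an antagonist of MCL1, had 0.37 ± 0.31, 0.43 ± 0.32 and 0.44 ± 0.51 in the authors' deposited table, with no call. Its 95% intervals reached from -0.24 to 0.98 in 16T, from -0.19 to 1.05 in KP1 and from -0.56 to 1.45 in KP22, so that a doubling lies inside the intervals of KP1 and KP22. The largest SE of any feature in the authors' deposited table was 0.521, so its log2 fold changes may be shrunken towards 0, which bears most on genes with few counts such as Pmaip1. Of the 4 BH3-only members, 1 rose and 1 fell for 16T, 1 and 0 for KP1, 1 and 1 for KP22. Rises and falls over all tested genes were 20.0% and 25.3%, 17.6% and 19.6%, and 19.5% and 18.8%.

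The 3 effects were also combined, with the signs of 16T and KP1 turned so that all point to higher Nfib, the errors added as independent, and p-values adjusted over 15008 genes. Higher Nfib went with more Bak1 (0.53 ± 0.054, adjusted p = 3.52e-22), Bcl2l1 (0.38 ± 0.033, adjusted p = 1.46e-29), Bid (0.36 ± 0.051, adjusted p = 4.69e-12) and Bax (0.21 ± 0.036, adjusted p = 1.02e-08). Bcl2l11 was lower (-0.50 ± 0.068, adjusted p = 1.53e-12). These are 4 members higher and 1 lower, 5 of 10, where 52.9% of all genes were called, 29.2% higher and 23.7% lower. The p-values of this mean rest on the SEs within each line and do not measure the spread between the 3 lines. Under a t distribution with 6 degrees of freedom the same 5 members were called, with adjusted p from 0.000442 (Bcl2l1) to 0.00495 (Bax). The mean hides the lines where a value is near 0, as for Bcl2l11 in KP22. Bid and Bax were not called in KP1 (adjusted p = 0.194 and 0.25).

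**Figure D3:**
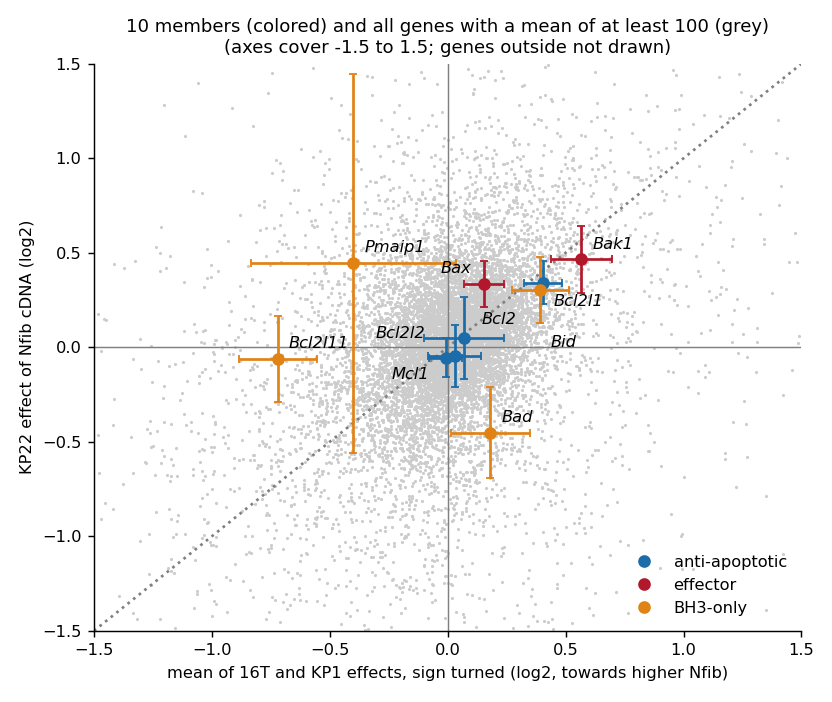
The averaged effect of the 2 knockdown lines with its sign turned towards higher Nfib (x axis, log2) against the KP22 effect of Nfib cDNA (y axis, log2), with 95% intervals for the 10 members in color and other genes of mean at least 100 in grey. The dotted line is equality, near which Bak1 and Bcl2l1 lie, while Bcl2l11 at -0.72 and -0.06 and Bad at 0.18 and -0.45 lie away from it.

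Whether the effects differed between lines was tested on the differences themselves. Between the knockdown lines, 2 of 10 members differed, beside 29.4% of all genes. The effect on Bid was lower in 16T than in KP1, with a difference of -0.49 ± 0.12 (adjusted p = 0.000525), and Bcl2 had a difference of -0.45 ± 0.17 (adjusted p = 0.0364). Under a t distribution with 6 degrees of freedom neither was called (adjusted p of 0.0545 for Bid and 0.153 for Bcl2), and recentred on the median gene Bcl2 had an adjusted p of 0.0558. For Bcl2l11 the difference was -0.19 ± 0.17, with a 95% interval of -0.52 to 0.14, for Bak1 -0.20 ± 0.13 (-0.46 to 0.06) and for Bcl2l1 0.04 ± 0.081 (-0.12 to 0.20).

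Between the knockdown lines and KP22, with signs turned, 3 of 10 members differed, beside 36.7% of all genes. Bcl2l11 had -0.72 ± 0.084 in the turned knockdown mean and -0.06 in KP22, a difference of -0.66 ± 0.14 (adjusted p = 2.72e-05). Bad had 0.18 ± 0.085 and -0.45, a difference of 0.63 ± 0.15 (adjusted p = 0.000125). Bax had 0.15 ± 0.044 and 0.34, a difference of -0.18 ± 0.076 (adjusted p = 0.0461). That call was lost with no filter on the mean (0.0587), recentred on the median gene (0.0629) and under the t distribution (0.148, all adjusted p). For Bak1 the difference was 0.10 ± 0.11, with a 95% interval of -0.12 to 0.32, and for Bcl2l1 0.06 ± 0.07 (-0.08 to 0.20). The line and the kind of vector cannot be told apart in this contrast. The same holds for the size of the Nfib change (-1.08 in 16T, -1.32 in KP1 and 1.80 in KP22). It also holds for the labelled starting level, Nfib high in 16T and KP1 and low in KP22.

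**Figure D4:**
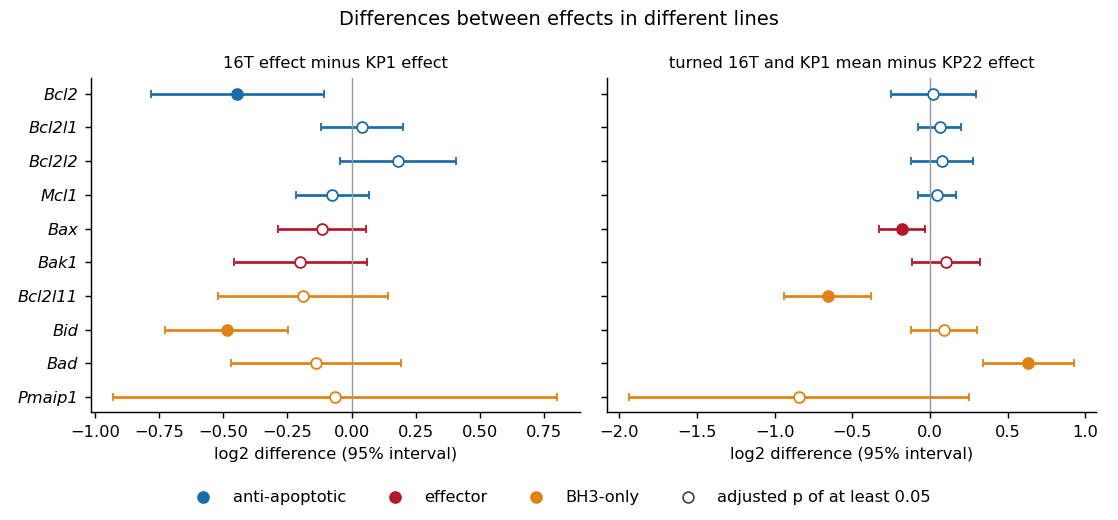
Differences between effects for each member with 95% intervals, the 16T effect minus the KP1 effect on the left and the turned knockdown mean minus the KP22 effect on the right, filled where the adjusted p was below 0.05. Bid and Bcl2 are filled on the left (-0.49 and -0.45), and Bax, Bcl2l11 and Bad on the right (-0.18, -0.66 and 0.63).

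The genes with the nearest pattern to Bcl2l11, by Euclidean distance over the 3 log2 fold changes among 12286 other genes with a mean of at least 100, were Aim1 (distance 0.117), Mpp1 (0.127) and B3galt4 (0.144). Aim1 had 0.62 ± 0.079, 0.91 ± 0.084 and 0.01 ± 0.074 in 16T, KP1 and KP22 in the authors' deposited table. Nearest to Bak1 were Pus7l (0.0411), Mrpl35 (0.0642) and Nme7 (0.0663). Mrpl35, which encodes a mitochondrial ribosomal protein, had -0.65 ± 0.099, -0.41 ± 0.098 and 0.45 ± 0.10 in the authors' deposited table.

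In a list of other BCL2 family genes and relatives, the BH3-only genes Bik and Bmf had the largest changes in KP1 and Bnip3, a mitophagy receptor, in 16T and KP22. The list was wider than apoptosis regulators, since it also held Bnip3l and Becn1 beside Bnip3. Of 17 listed, 11 were tested in the knockdown lines and 13 in KP22. Rises and falls numbered 5 and 3 in 16T, 3 and 3 in KP1, 0 and 5 in KP22. Bnip3, Bnip3l and Becn1 were among the rises in 16T in the authors' deposited table (2.71 ± 0.058, 0.60 ± 0.075 and 0.29 ± 0.057). Bnip3 was among the falls in KP1 (-0.15 ± 0.055), and Bnip3 and Bnip3l among those in KP22 (-0.61 ± 0.058 and -0.27 ± 0.074). Over all tested genes 20.0% rose and 25.3% fell in 16T, 17.6% and 19.6% did so in KP1, and 19.5% and 18.8% in KP22. The list's medians were 0.25, 0.05 and -0.10, beside -0.05, -0.02 and 0.04 over all tested genes. No difference between a list and all genes was tested, here or for the next lists. Bbc3, which encodes the BH3-only protein PUMA, rose in both knockdown lines in the authors' deposited table (0.38 ± 0.12, adjusted p = 0.00436, and 0.40 ± 0.11, adjusted p = 0.00111) and had 0.22 ± 0.11 in KP22. Bmf, a BH3-only gene whose protein binds the cytoskeleton, fell to 0.411-fold of control in KP1 (-1.28 ± 0.087, adjusted p = 1.79e-47 in the authors' deposited table). It rose in 16T (0.25 ± 0.088, adjusted p = 0.0115) and fell in KP22 (-0.22 ± 0.093, adjusted p = 0.0458). The BH3-only gene Bik rose 2.60-fold in KP1 and fell in KP22 (1.38 ± 0.17 and -0.47 ± 0.16 in the authors' deposited table). Bok, a relative of the effectors, fell in 16T and rose in KP1 (-0.75 ± 0.072 and 0.20 ± 0.072 in the authors' deposited table). Hrk, a neuronal BH3-only gene, fell in all 3 comparisons in the authors' deposited table (-0.29 ± 0.11, -0.26 ± 0.10 and -0.48 ± 0.11), thus with the shRNA and with cDNA alike.

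Downstream of mitochondria, 22 genes of the apoptosome, caspases and their inhibitors were listed and 21 tested in the knockdown lines, 22 in KP22. Rises and falls numbered 6 and 8 in 16T, 2 and 3 in KP1, 7 and 6 in KP22, with medians of -0.11, 0.06 and -0.04. That is 14 of 21, 5 of 21 and 13 of 22, beside 45.3%, 37.2% and 38.4% of all tested genes, whose medians were -0.05, -0.02 and 0.04. Xiap, an inhibitor of caspases, rose in both knockdown lines in the authors' deposited table (0.31 ± 0.056 and 0.43 ± 0.056, adjusted p = 3.09e-07 and 3.44e-13). In KP22 it fell (-0.24 ± 0.057, adjusted p = 0.000202). Casp9, the initiator caspase of the apoptosome, rose in 16T (0.46 ± 0.08) and fell in KP22 (-0.58 ± 0.081) in the authors' deposited table. Casp6 fell with cDNA in KP22 in the authors' deposited table (-2.08 ± 0.32, adjusted p = 3.88e-10). Vdac2, whose product holds BAK in the mitochondrial membrane, rose in 16T and KP1 and fell in KP22 in the authors' deposited table (0.20 ± 0.049, 0.14 ± 0.049 and -0.19 ± 0.049).

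The death receptor arm had 13 listed genes, of which 10 were tested in the knockdown lines and 11 in KP22, with 2 rising and 2 falling for 16T, 1 and 1 for KP1, and 3 and 2 for KP22, and with medians of -0.22, 0.15 and 0.06, beside 45.3%, 37.2% and 38.4% of all genes changed and medians of -0.05, -0.02 and 0.04. Tnfrsf1a, which encodes a receptor for tumor necrosis factor, fell in 16T and KP1 and rose in KP22 in the authors' deposited table (-0.58 ± 0.054, -0.21 ± 0.055 and 0.15 ± 0.06). Tnfrsf21, which encodes death receptor 6, rose in all 3 (0.64 ± 0.074, 0.50 ± 0.073 and 0.19 ± 0.076 in the authors' deposited table). In the authors' deposited table Casp8, whose product cleaves BID, fell in KP22 (-0.43 ± 0.15, adjusted p = 0.0144).

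The list of regulators and partners had 23 genes, of which 22 were tested in the knockdown lines and 23 in KP22, with 9 rising and 7 falling for 16T, 5 and 5 for KP1, and 9 and 4 for KP22, and with medians of 0.12, -0.04 and 0.10. Of all genes 45.3%, 37.2% and 38.4% changed, with medians of -0.05, -0.02 and 0.04. Trp73, a p53 relative, fell in 16T (-1.45 ± 0.12, adjusted p = 1.43e-32) and KP1 (-0.62 ± 0.20, adjusted p = 0.00815). With cDNA in KP22 Trp73 rose in the authors' deposited table (4.75 ± 0.18, adjusted p = 7.61e-147). Foxo1, which encodes a forkhead transcription factor, rose 2.18-fold in 16T and 1.81-fold in KP1 (1.13 ± 0.12 and 0.86 ± 0.12 in the authors' deposited table, adjusted p = 1.09e-19 and 9.41e-12). In KP22 Foxo1 fell (-0.46 ± 0.12, adjusted p = 0.000705 in the authors' deposited table), where Bcl2l11 was not called. FOXO factors and DDIT3 (CHOP) are known activators of Bcl2l11 transcription. Foxo3 and Foxo4 rose in 16T in the authors' deposited table (0.46 ± 0.075 and 0.43 ± 0.072) but were not called in KP1 (-0.08 ± 0.077, adjusted p = 0.487, and -0.02 ± 0.073, adjusted p = 0.912). In KP22 Foxo4 rose (0.18 ± 0.072, adjusted p = 0.0326) and Foxo3 had -0.05 ± 0.077 (adjusted p = 0.65) in the authors' deposited table. Ddit3 rose in 16T and KP1 in the authors' deposited table (0.82 ± 0.15 and 0.55 ± 0.15, adjusted p = 1.27e-07 and 0.000941), with -0.07 ± 0.16 in KP22. Dynll1, which encodes a dynein light chain that binds BIM, fell in 16T in the authors' deposited table (-0.35 ± 0.05). It had 0.12 ± 0.05 in KP1 (adjusted p = 0.0519) and rose in KP22 (0.25 ± 0.05, adjusted p = 6.77e-06). Whether any of these factors has a part in the Bcl2l11 values was not tested.

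**Figure D5:**
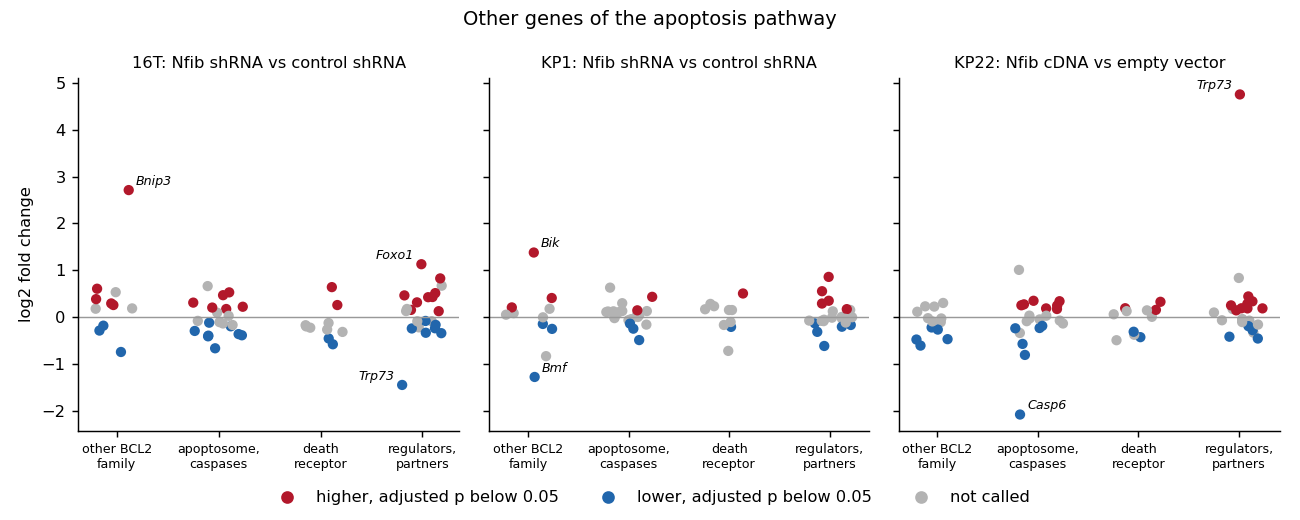
Log2 fold changes of the 4 lists of other apoptosis genes in 16T, KP1 and KP22, each point 1 tested gene, red where it rose, blue where it fell and grey where it was not called. Bik (1.38) and Bmf (-1.28) stand apart in KP1, Casp6 (-2.08) and the p53 relative Trp73 (4.75) in KP22, and Bnip3 (2.71) in 16T. Trp73 fell in 16T (-1.45) and in KP1 (-0.62).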

How the data were processed

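RNA was sequenced in 12 samples, 2 in each of 6 groups. The tools are TopHat, bedtools, DESeq and DESeq2 with build mm10, per the submitters' processing notes; no source used here states a version or setting. The authors' deposited table holds, per the file headers, a signal (the mean normalized count of all libraries), log2 fold changes and SEs (log2), Wald scores, and p-values, unadjusted and adjusted, per comparison, also against an absolute log2 fold change of 0.5. Its name mentions cqn normalization. Of 28112 features, 4886 with joined names were set aside, except beside the 4 members they touch. The other deposited list gives 211975 exon intervals of RefSeq genes on mm10, with the number of exons merged.

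Calls are the authors' adjusted p below 0.05. The design had allowed for counts per sample. From the deposited effects and SEs, 3 contrasts (their mean, and 2 differences) were derived for the 15008 genes whose mean was 10 or more. They used normal p-values with Benjamini-Hochberg adjustment. The calculation was run on simulated data with independent normal errors of the deposited SEs. That run cannot show whether the SEs or the normal reference are right, since it takes both as given. The comparisons share no samples. Depth per sample is unknown; precision is that of the SEs, 0.051 to 0.51 for the members.

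Named by rule are all members, Nfib, and at most 3 rises and 3 falls per list and comparison. The 3 genes nearest to the 2 members with the largest effects are also named by it. Which of these stand in the text, the ratios and the promoter motifs were picked after values were seen. Outside the rule, Becn1, Foxo3, Foxo4, Trp53, some cell type markers and genes that overlap members are named too. The members and lists were chosen with earlier results of these data known. Python 3.11.15, pandas 2.3.3 and scipy 1.17.1 were used.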

Additional observations from a re-analysis of the deposited data

Results flagged for a closer look

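By a test of the difference itself, the effect differed between 16T and KP1 for 2 of 10 members, beside 29.4% of all genes. Between the turned knockdown mean and KP22 it differed for 3 of 10, beside 36.7% of all genes. These counts are not read as particular to the family. Between the knockdown effects in 16T and KP1, Bid differed by -0.487 and Bcl2 by -0.445 on the log2 scale. Between the turned knockdown mean and KP22, Bcl2l11 differed by -0.661, Bad by 0.633 and Bax by -0.181. The calls for Bcl2l11 and Bad held under every alternative run on them. Those for Bid (adjusted p = 0.0545) and Bcl2 (0.153) were lost with a t distribution, that for Bcl2 also when recentred (0.0558), and that for Bax with no filter, with the t distribution and when recentred (0.0587, 0.148 and 0.0629). No outlying sample could be looked for, as values per sample were not used here.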

How the results depend on the processing

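Calls for Bak1, Bcl2l1 and Bcl2l11 in the knockdown lines held with other filters on the mean, another adjustment, recentring on the median gene (shifts of -0.05, -0.02 and 0.05 for 16T, KP1 and KP22) and a t distribution with 6 degrees of freedom. Under the authors' test against 0.5, and with an absolute change of at least 1, members called numbered 0 in each comparison. In the difference between 16T and KP1, 0 members were called with the t distribution and 1 (Bid) when recentred, in place of 2. Signs turned for 3 values near 0, none of them called: Mcl1 in 16T recentred (0.0234), Bcl2l11 in KP22 on the feature with a joined name (0.0139), and Bcl2l2 in the mean of the 3 effects recentred (-0.0346). The cause was not tested. No paired analysis was possible because the deposited table holds no values per sample; for the same reason leaving out a replicate was not run.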
